A study of Mus musculus with 27 samples.

Results

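Medulloblastoma grafts treated with the Smo antagonist NVP-LDE225 (LDE225) were compared between 48 h and 16 h of treatment, to describe how the drugged state moved on with time. The arrays are those labelled LDE225 at 48 h (n = 2 tumours) and 16 h (n = 3), set beside those labelled vehicle at 48 h (n = 2) and 16 h (n = 3), which makes 10 of the 27 samples of the series and 10 of its 21 RNA arrays. All tumours, treated and control alike, derived from Ptch+/-p53-/- mice, which lack p53 and carry an inactivated Ptch allele. Cells dissociated from tumours were placed under the flank skin of Harlan nu/nu mice, which lack mature T cells but keep macrophages, vessels and stroma, and dosing began about 10 days later. LDE225 was given at 20 mg/kg/day once a day, and the labels call the tumours of all 4 groups sensitive. The labels number mice within each group, so each array was taken as 1 tumour of 1 mouse. Tumours at 4 h (LDE225 n = 3, vehicle n = 3) and resistant tumours of day 26 (20 mg/kg/day n = 2, 160 mg/kg/day n = 3, in 2 doses a day) appear below only where they place these groups.

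Hedgehog ligands act through Ptch1, a receptor that holds the membrane protein Smo inactive. Released Smo activates the Gli transcription factors, which in cerebellar granule neuron progenitors maintain proliferation. Loss of Ptch1 keeps this pathway on and gives rise to medulloblastoma, and Smo antagonists switch it off below Ptch1. Withdrawal of Hedgehog signal from granule neuron progenitors is known to be followed by cell cycle exit and neuronal differentiation.

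RNA was read on Affymetrix mouse arrays, which measure each transcript with one or more probe sets. The signals are linear and not counts, so precision is set by the number of arrays. No gene names were paired with the probe sets in the tables used, and results are therefore given by probe set, except for control probe sets whose names state a mouse gene or repeat. A change was called when its adjusted p was below 0.05 in a limma model over all 21 RNA arrays, on log2(signal + 4), with all 45037 probe sets other than controls tested. The tumours are bulk tissue, so fewer cells of a type and less RNA per cell cannot be told apart. Pairs of arrays within a group correlated at 0.962 to 0.974, and LDE225 tumours of 48 h correlated with those of 16 h at 0.928 to 0.946. Vehicle tumour 1 of 48 h stood nearer to the LDE225 tumours of 48 h (0.946 with each) than vehicle tumour 3 did (0.915 and 0.91). The actin controls give a 3′ over 5′ ratio, a measure of RNA or labelling quality, which was 1.26 and 1.33 in LDE225 tumours at 48 h and 1.58, 1.91 and 1.86 at 16 h. In vehicle tumours it was 1.3 and 1.25 at 48 h and 1.81, 1.67 and 1.77 at 16 h. Within either treatment this quality difference and the time of harvest cannot be told apart.

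The LDE225 transcriptome changed widely after 16 h. Of 45037 probe sets, 6479 (14.4%) differed between 48 h and 16 h of LDE225, with 3380 (7.5%) higher at 48 h and 3099 (6.88%) lower. Among called probe sets the median log2 change was 1.56 for the rises and -0.81 for the falls, against 0.04 over all probe sets. This gap varied with signal level. Where the mean signal over 21 arrays was above 1000 the medians were 0.68 and -0.65, and below 25 they were 1.82 and -1.45. At least 4-fold differences numbered 1010 upward (2.24%) and 87 downward (0.193%). Values of the LDE225 tumours at 48 h lay above those of all 3 tumours at 16 h for 11044 probe sets (24.5%) and below them for 9926 (22%), while vehicle tumours of 48 h lay above those of 16 h for 6686 (14.8%) and below for 7483 (16.6%). Single tumours bore on the number: 2412 probe sets were called without LDE225 tumour 1 of 48 h, 3453 without tumour 2 of 48 h and 4294 without tumour 3 of 16 h. When each array was centred on its median log2 value, 28.4% of 7782 calls were rises, in place of 52.2%, and the median over all probe sets moved to -0.21.

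Some probe sets passed between near background and a clear signal. Signal was above 200 in both LDE225 tumours of 48 h and below 50 in all 3 tumours of 16 h for 41 probe sets (0.091%). The reverse, below 50 at 48 h and above 200 at 16 h, held for 9 (0.02%). Among vehicle tumours these numbers were 0 and 2 (0.00444%).

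Fewer changes were called in vehicle tumours over the same interval. Between 48 h and 16 h of vehicle 308 probe sets (0.684%) differed, 198 higher (0.44%) and 110 lower (0.244%), with 6019 at an unadjusted p below 0.05, against 12228 in LDE225 tumours. At least 4-fold differences numbered 10 upward (0.0222%) and 4 downward (0.00888%). The vehicle count rested on few tumours. It was 30 without vehicle tumour 1 of 48 h, 10 without tumour 3 of 48 h, 73 without tumour 1 of 16 h and 58 without tumour 3 of 16 h. It was also 175 and 197 without LDE225 tumours 2 and 3 of 16 h, which bear on the shared estimate of spread.

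The vehicle changes were partly present under LDE225 too. The group means of these comparisons have no array in common, though the estimate of spread is shared. Of the 110 falls in vehicle, 59 (53.6%) were also falls in LDE225, which is 1.9% of the 3099 falls there, and none was a rise. Of the 198 rises in vehicle, 54 (27.3%) were also rises in LDE225, which is 1.6% of the 3380, while 8 (4.04%) were falls. Among all probe sets 7.5% rose and 6.88% fell in LDE225. Most LDE225 changes were not called in vehicle, which does not show them absent there. In simulated data the vehicle comparison recovered 17.5% of 2-fold changes. The 3380 rises had a median log2 change of 0.30 in vehicle tumours (quartiles -0.01 and 0.63), and the 3099 falls had -0.11 (quartiles -0.35 and 0.12), against -0.01 over all probe sets.

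The difference between the treatments was tested directly, as the LDE225 change minus the vehicle change. It passed for 1346 probe sets (2.99%), of which 547 (1.21%) had the higher and 799 (1.77%) the lower change under LDE225. The 547 had a median difference of 2.11 on the log2 scale, with a median change of 1.85 in LDE225 and -0.22 in vehicle tumours. The 799 had a median difference of -1.18, with -0.92 in LDE225 and 0.27 in vehicle tumours. The count was 229 without vehicle tumour 3 of 48 h and 1562 without vehicle tumour 1 of 48 h. It was 517 and 397 without LDE225 tumours 1 and 2 of 48 h, 888 and 770 without LDE225 tumours 1 and 3 of 16 h, and 818 without vehicle tumour 1 of 16 h. The share with the higher change was 40.6%, but 22.3% with arrays centred on their medians and 56.2% with an offset of 32.

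**Figure D1:**
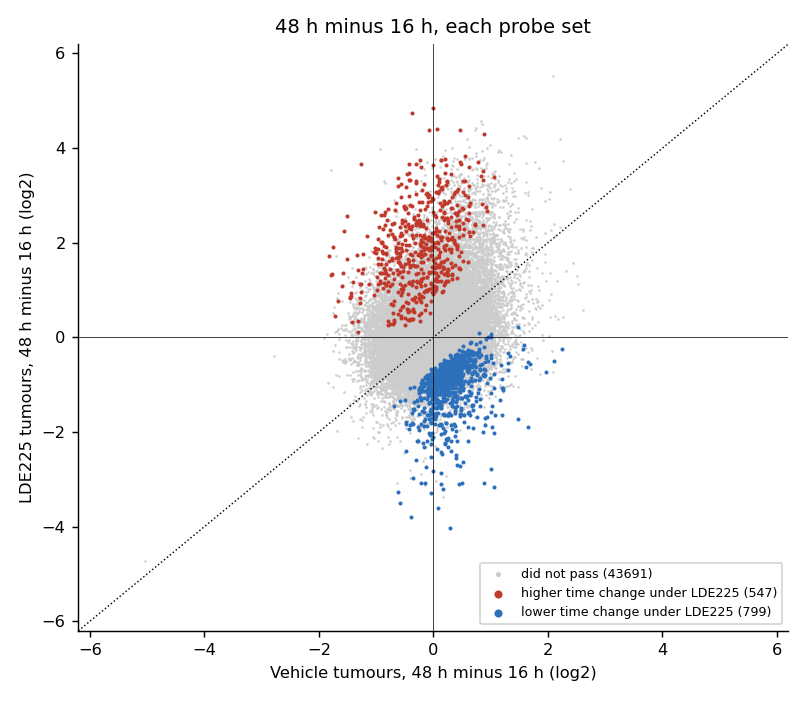
Log2 change at 48 h minus 16 h in LDE225 tumours (vertical axis) against vehicle tumours (horizontal axis), 1 point for each of 45037 probe sets, with the dotted line marking equal change. Red points (547) had a higher and blue points (799) a lower change under LDE225 by the test of the difference, and the red points reach farther from the line than the blue.

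Rises and falls lay at different signal levels. Among the 21672 probe sets whose mean signal over all 21 arrays was below 25, 4.79% rose and 0.434% fell between 16 h and 48 h of LDE225. Among the 2360 with means of 500 to 1000, 7.58% rose and 24.1% fell, and among the 2261 above 1000, 4.6% rose and 21% fell. Dim probe sets lie near the offset added before log2, which leaves them little room to fall. The part of this floor in the low share of falls below 25 was not tested. In the stratum of 25 to 100, 11.9% of 9118 probe sets rose, with a median log2 change of 1.70. Of the 3380 rises, 1038 had a mean signal below 25 and 1085 one of 25 to 100. The largest share in the vehicle comparison was 1.18% higher, in the stratum of 100 to 200. The direct test of the difference from vehicle called 0.715% higher and 0.0415% lower below 25, and 0.885% higher and 5.26% lower above 1000. A test of how level relates to direction was not made. The arrays themselves differed: median signal was 31.3 and 36.1 in LDE225 tumours of 48 h, against 27.6, 27.1 and 28.3 in those of 16 h. Mean signal was 229.7 and 224.3 against 223.6, 245.8 and 241. Vehicle tumours of 48 h had medians of 28.2 and 21.8. The part of this shift in the pattern was not tested.

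**Figure D2:**
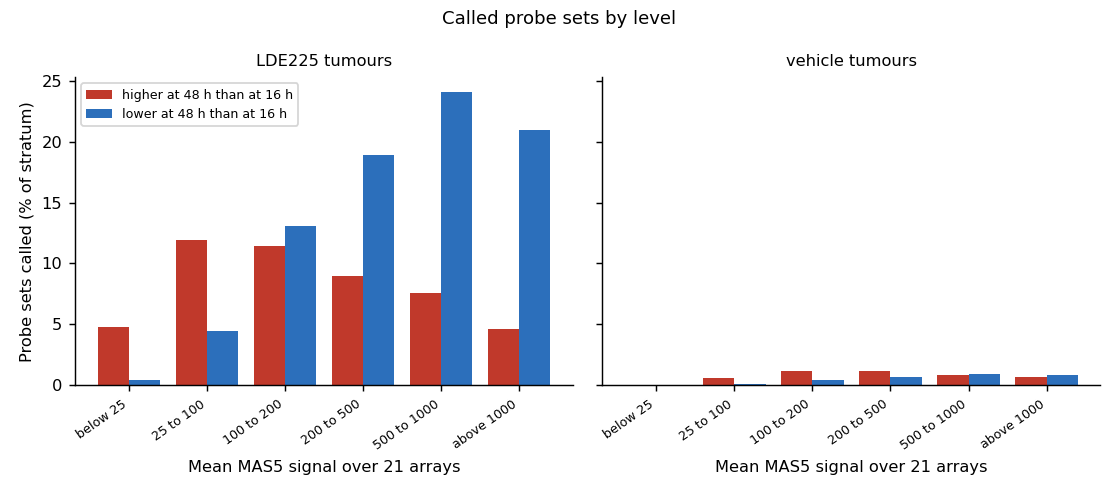
Percent of probe sets called higher (red) or lower (blue) at 48 h than at 16 h, by mean signal over 21 arrays, for LDE225 tumours (left) and vehicle tumours (right). In LDE225 tumours the falls reach 24.1% of probe sets with mean signals of 500 to 1000, while rises reach 11.9% between 25 and 100, and no vehicle bar passes 1.18%.

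Each tumour was then placed on the sets of rises and falls, as the mean log2 level over a set minus that of vehicle tumours at 4 h. The LDE225 tumours chose these sets, so their own values only describe the choice. Over the 3380 rises the LDE225 tumours of 48 h stood at 1.94 and 1.89, and those of 16 h at 0.22, 0.36 and 0.16. The LDE225 tumours of 4 h stood at 0.01, 0.06 and 0. Vehicle tumours of 48 h, which entered the choice only through the shared estimate of spread, stood at 0.68 (tumour 1) and 0.07 (tumour 3), and those of 16 h at 0.30, -0.08 and 0. Vehicle tumour 1 of 48 h was thus above the other vehicle tumours, all of which lay between -0.08 and 0.30, and below both LDE225 tumours of 48 h.

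Over the 3099 falls the LDE225 tumours of 48 h stood at -0.94 and -0.85, and those of 16 h at 0.04, -0.01 and 0.06. Vehicle tumours stood at -0.25 and -0.13 at 48 h and at -0.15, 0 and -0.03 at 16 h. The LDE225 tumours of 16 h lay within 0.06 of the vehicle level of 4 h, and those of 48 h lay below every vehicle tumour. Against vehicle tumours of the same time, the falls had a median log2 difference of -0.63 at 48 h and 0.08 at 16 h, and the rises had 1.49 at 48 h and 0.18 at 16 h. These last values share arrays with the comparison that chose the sets. Over all probe sets, LDE225 tumours differed from vehicle tumours at 7009 (15.6%) at 48 h, 3673 higher (8.16%) and 3336 lower (7.41%), and at 4194 (9.31%) at 16 h, 2224 higher (4.94%) and 1970 lower (4.37%).

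The smaller vehicle sets gave another picture. Vehicle tumours of 48 h and 16 h chose these sets, so their own values only describe the choice. Over the 198 probe sets that rose in vehicle, LDE225 tumours of 48 h stood at 0.72 and 0.56 and those of 16 h at 0.30, 0.23 and 0.18, against 0.87 and 0.98 in vehicle tumours of 48 h and -0.18, -0.07 and -0.15 in those of 16 h. Over the 110 that fell in vehicle, LDE225 tumours of 48 h stood at -1.05 and -0.82, beside -0.91 in each vehicle tumour of 48 h. Resistant tumours stood at 0.63 and 0.56 (20 mg/kg/day) and at 0.65, 0.76 and 0.80 (160 mg/kg/day) over the rises in vehicle. Resistant arrays had actin ratios of 1.27 to 1.4, within or next to those of the 48 h arrays. The part of array quality in the vehicle sets was not tested.

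**Figure D3:**
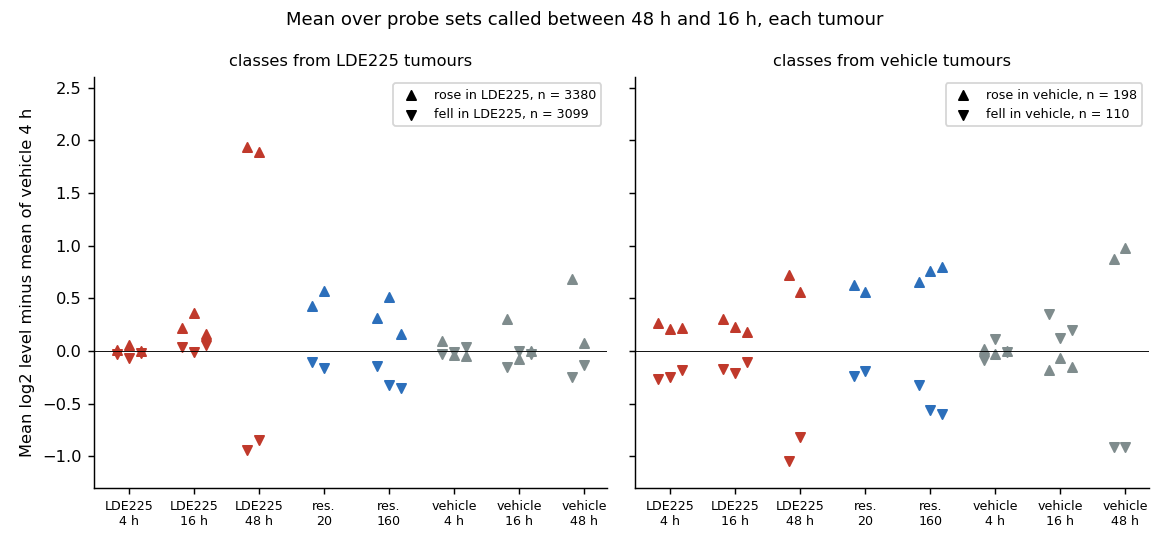
Mean log2 level minus the mean of vehicle tumours at 4 h, 1 symbol per tumour, over probe sets called between 48 h and 16 h in LDE225 tumours (left) or in vehicle tumours (right), with upward triangles for rises and downward triangles for falls. In the left panel the 2 LDE225 tumours of 48 h (1.94 and 1.89, -0.94 and -0.85) stand beyond the resistant and vehicle tumours, and in the right panel resistant tumours and LDE225 tumours of 48 h lie on the side of vehicle tumours of 48 h.

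A minority of the LDE225 changes were also called in resistant tumours, taken at day 26 under the drug. Changes not called there are not shown to be absent. No group mean is shared with the LDE225 comparison, though the estimate of spread is. Against vehicle tumours of 4 h, 1398 probe sets (3.1%) were higher and 783 (1.74%) lower in the 5 resistant tumours. Of the 3380 rises, 468 (13.8%) were among the higher and 20 (0.592%) among the lower. Of the 3099 falls, 377 (12.2%) were among the lower and 24 (0.774%) among the higher. Against vehicle tumours of 48 h, whose actin ratios were like theirs, 249 probe sets (0.553%) differed, 143 (0.318%) higher and 106 (0.235%) lower in resistant tumours. Here 68 of the rises (2.01%) were higher and 13 (0.385%) lower, and 26 of the falls (0.839%) were lower and 10 (0.323%) higher. Median log2 differences from vehicle tumours of 48 h were -0.02 for the rises and -0.03 for the falls. These medians rest on 2 vehicle tumours, which stood at 0.68 and 0.07 over the rises. In resistant tumours the mean over the rises was 0.43 and 0.57 (20 mg/kg/day) and 0.31, 0.51 and 0.16 (160 mg/kg/day). All were below both LDE225 tumours of 48 h.

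The probe sets named here are the 2 largest rises and 2 largest falls among 281 rising and 541 falling candidates. Candidates passed both the LDE225 comparison and the test of the difference from vehicle in the same direction, did not overlap between 48 h and 16 h, and had a mean signal of at least 200 in the higher group. The fold changes in those comparisons chose them and so only describe them. The signal of 1417416_at was 768.7 and 893.6 in LDE225 tumours of 48 h, against 36.4, 13.1 and 30.7 in those of 16 h. It was 14.9 and 13.2 in vehicle tumours of 48 h and 15.5, 7.9 and 21.2 in those of 16 h. The LDE225 groups were far apart and the vehicle groups overlapped. The log2 change was 4.85 (standard error, SE, 0.50, limma, adjusted p = 5.2e-06) in LDE225 and 0 (SE 0.50) in vehicle. Its signal in LDE225 tumours of 4 h was 10.1, 13.7 and 23.2, and in resistant tumours it was 25.2 and 56 (20 mg/kg/day) and 8.7, 7.8 and 19.1 (160 mg/kg/day). No tumour outside LDE225 at 48 h passed a signal of 56.

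The second rise, 1419411_at, had a wide spread at 48 h. Its signal was 144.9 and 415.7 in LDE225 tumours of 48 h, against 8.8, 0.4 and 10.6 in those of 16 h. Vehicle tumours had 1.1 and 0.6 at 48 h and 0.3, 7.5 and 1.1 at 16 h, so most values outside the LDE225 48 h group lay near or below the offset of 4. The log2 change was 4.74 (SE 0.56, limma, adjusted p = 2e-05) in LDE225, but 2.88 with an offset of 32, and -0.38 (SE 0.56, limma, adjusted p = 0.84) in vehicle. Resistant tumours had 6.2 and 14.9 (20 mg/kg/day) and 4.8, 1.2 and 9.1 (160 mg/kg/day).

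Both falls had been higher under the drug than in vehicle tumours at 16 h. The signal of 1460627_at was 16.4 and 10.7 in LDE225 tumours of 48 h, against 255.8, 280.8 and 295.4 in those of 16 h. Vehicle tumours had 105.9 and 109.9 at 48 h and 60.4, 114 and 96.6 at 16 h. The LDE225 values thus lay below all vehicle values at 48 h and above them all at 16 h. The log2 change was -4.02 (SE 0.31, limma, adjusted p = 4.2e-07) in LDE225 and 0.29 (SE 0.31, limma, adjusted p = 0.76) in vehicle. LDE225 minus vehicle was -2.69 (SE 0.34, limma, adjusted p = 2.4e-05) at 48 h and 1.62 (SE 0.28, limma, adjusted p = 0.00064) at 16 h, in comparisons that share arrays with the change over time. At 4 h the signal was 165.5, 179.1 and 82.6 in LDE225 tumours and 134.3, 125.6 and 85.4 in vehicle tumours, ranges that overlap. Resistant tumours had 89.8 and 107.1 (20 mg/kg/day) and 50.7, 29.9 and 45.3 (160 mg/kg/day), all above both LDE225 tumours of 48 h.

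The probe set 1435941_at had 20.5 and 18.7 in LDE225 tumours of 48 h, against 248.9, 328.3 and 279.1 in those of 16 h. Vehicle tumours had 108 and 99.2 at 48 h and 79.6, 105.2 and 111 at 16 h. Here too the LDE225 values lay below all vehicle values at 48 h and above them at 16 h. The log2 change was -3.61 (SE 0.32, limma, adjusted p = 1.2e-06) in LDE225 and 0.08 (SE 0.32, limma, adjusted p = 0.96) in vehicle. LDE225 minus vehicle was -2.19 at 48 h (SE 0.35, limma, adjusted p = 0.00022) and 1.5 at 16 h (SE 0.28, limma, adjusted p = 0.0016). These comparisons share arrays with the change over time. LDE225 tumours of 4 h had 152.2, 148.9 and 148.8, above the 128.4, 101.2 and 123.8 of vehicle tumours. This difference was not called (0.35, SE 0.28, limma, adjusted p = 0.94).

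**Figure D4:**
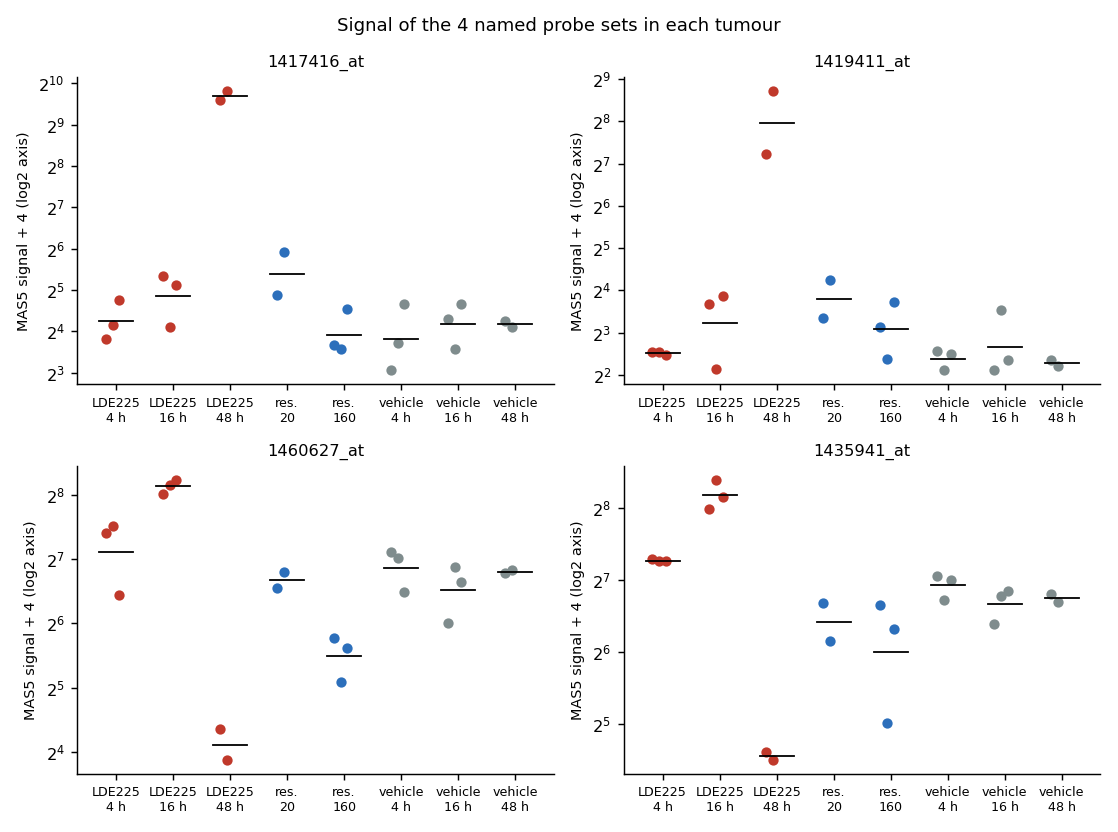
MAS5 signal + 4 on a log2 axis for the 4 named probe sets in all 21 tumours, by group, with points for tumours and bars for group means on the log2 scale (res. marks resistant tumours with their dose in mg/kg/day). LDE225 tumours of 48 h stand alone above all others for 1417416_at and 1419411_at, and alone below all others for 1460627_at and 1435941_at, whose LDE225 tumours of 16 h are the highest.

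Control probe sets that name a mouse gene or repeat were fitted together with all 45101 probe sets, a step added after seeing the data. Several of them name the same gene. Of 19 such probe sets, 1 rose and 0 fell between 48 h and 16 h of LDE225 (limma, adjusted p below 0.05). Among the 45037 probe sets other than controls 7.5% rose and 6.88% fell, so these counts do not set the controls apart. The one that rose names the B1 element, a short interspersed repeat that lies in many transcripts and is also transcribed by RNA polymerase III. Its signal was 3239.5 and 2765.3 in LDE225 tumours of 48 h, against 978.4, 1142.6 and 1047.5 in those of 16 h. Vehicle tumours had 1369.6 and 866.8 at 48 h and 1284.4, 1178.6 and 1213.1 at 16 h. The LDE225 tumours of 48 h were the highest of all 21 tumours, followed by 1 resistant tumour of 160 mg/kg/day at 2223.7. The log2 change was 1.5 (SE 0.23, limma, adjusted p = 0.00027) in LDE225 and -0.17 (SE 0.23, limma, adjusted p = 0.83) in vehicle. The difference between these changes was 1.67 (SE 0.33, limma, adjusted p = 0.0087), but did not pass without vehicle tumour 3 of 48 h (1.34, limma, adjusted p = 0.10) or without LDE225 tumour 1 of 48 h (1.56, limma, adjusted p = 0.054). Of the probe sets that name the B2 element, another short interspersed repeat, one ranged over 9442.5 to 9754.4 in LDE225 tumours of 48 h and 9042.9 to 13022.4 in those of 16 h, with a log2 change of -0.24 (SE 0.19, limma, adjusted p = 0.46). The other had a change of 0.22 (SE 0.24, limma, adjusted p = 0.61), so neither was called and their signs differed.

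Housekeeping genes were not called. The 3′ Gapdh probe set, for a glycolytic enzyme, averaged 5900 ± 215 (SD, n = 2) in LDE225 tumours of 48 h and 7620 ± 1230 (SD, n = 3) in those of 16 h, a log2 change of -0.36 (SE 0.22, limma, adjusted p = 0.31). The 3′ β-actin probe set averaged 9790 ± 381 (SD, n = 2) and 10400 ± 1830 (SD, n = 3) at these times, a change of -0.07 (SE 0.19, limma, adjusted p = 0.85). The 5′ and middle β-actin probe sets had the other sign, 0.38 (SE 0.17, limma, adjusted p = 0.16) and 0.31 (SE 0.17, limma, adjusted p = 0.27). In vehicle tumours these had 0.50 (SE 0.17, limma, adjusted p = 0.19) and 0.41 (SE 0.17, limma, adjusted p = 0.29).

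By their 3′ probe sets, the transferrin receptor and pyruvate carboxylase were lower under LDE225 than in vehicle tumours at both times, with no change called between 48 h and 16 h. The transferrin receptor takes up iron and is abundant in dividing cells. Its 3′ probe set had signals of 32.3 and 41.6 in LDE225 tumours of 48 h and 32.9, 26.3 and 31.8 in those of 16 h, against 86.9 and 134.3 in vehicle tumours of 48 h and 116.3, 97.2 and 84.2 in those of 16 h. LDE225 and vehicle values did not overlap at either time. At 4 h they did, with 68.6, 55.6 and 55.6 in LDE225 and 43.3, 112.4 and 45.8 in vehicle tumours. The lowest of these vehicle values lay near the 41.6 of LDE225 at 48 h. LDE225 minus vehicle was -1.46 at 48 h (SE 0.35, limma, adjusted p = 0.0061) and -1.58 at 16 h (SE 0.28, limma, adjusted p = 0.00092), while the change over time under LDE225 was 0.25 (SE 0.32, limma, adjusted p = 0.68). At 48 h it did not pass without vehicle tumour 3 (limma, adjusted p = 0.13) or LDE225 tumour 1 (limma, adjusted p = 0.066). Its 5′ probe set passed at 48 h (-1.46, limma, adjusted p = 0.029) and not at 16 h (-1.03, limma, adjusted p = 0.084), and its middle probe set passed at neither time (-0.98 at 48 h and -1.15 at 16 h). Resistant tumours had 122.9 and 158 (20 mg/kg/day) and 203.3, 314.4 and 218.2 (160 mg/kg/day) with the 3′ probe set, all above every sensitive LDE225 tumour.

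Pyruvate carboxylase makes oxaloacetate from pyruvate and so feeds the citric acid cycle. Its 3′ probe set had signals of 139.5 and 337.6 in LDE225 tumours of 48 h and 200.9, 294.3 and 196.2 in those of 16 h, against 527.4 and 545.8 in vehicle tumours of 48 h and 457.7, 636.1 and 549.8 in those of 16 h. The LDE225 tumours lay below all vehicle tumours at each time. LDE225 minus vehicle was -1.29 at 48 h (SE 0.31, limma, adjusted p = 0.0072) and -1.25 at 16 h (SE 0.25, limma, adjusted p = 0.0029). The change over time under LDE225 was -0.06 (SE 0.28, limma, adjusted p = 0.93). At 48 h it did not pass without vehicle tumour 3 (limma, adjusted p = 0.067) or LDE225 tumour 1 (-0.66, limma, adjusted p = 0.19). The other 3 pyruvate carboxylase probe sets were lower than in vehicle at both times too, with log2 differences of -1.41, -1.60 and -1.93 at 48 h and -0.81, -1.01 and -1.38 at 16 h, which passed. The 5′ one also rose between 48 h and 16 h of vehicle (1.15, SE 0.23, limma, adjusted p = 0.027), beside the lower 3′ to 5′ actin ratio of the 48 h arrays, whose part in it was not tested. That call passed in 14 of 20 alternatives: it was lost without vehicle tumour 1 (limma, adjusted p = 0.11) or 3 (0.24) of 48 h, without vehicle tumour 1 (0.088) or 3 (0.084) of 16 h, with median centring (0.075) and with only the 10 arrays (0.057).

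The probe sets that answered the drug first were taken from the difference between the 4 h groups. No 4 h array enters the fold changes of 48 h against 16 h, but all 21 arrays share 1 estimate of spread, on which the calls of both comparisons rest. At 4 h, 29 probe sets (0.0644%) differed between LDE225 and vehicle tumours, 27 lower (0.06%) and 2 higher (0.00444%). Of the 27 early falls, 13 fell further between 48 h and 16 h of LDE225, 3 rose and 11 did not pass, against 6.88% lower and 7.5% higher among all probe sets. Their median log2 change was -0.78, from -1.84 to 1.77, against 0.04 over all. In vehicle tumours 0 of the 27 passed in limma. Only 0.684% of all probe sets passed there, so this does not set the 27 apart. Their median in vehicle tumours was 0.07, from -0.44 to 0.50. The test of the difference from vehicle passed for 7 with the lower change under LDE225 and 1 with the higher, against 1.77% and 1.21% of all probe sets. Both early rises were higher again at 48 h than at 16 h of LDE225, by log2 changes of 0.58 and 1.62, and neither passed the test of the difference. Without LDE225 tumour 1 of 48 h the 13 became 7.

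By tumour, the mean log2 level of the 27 early falls minus that of vehicle tumours of the same time was -1.5, -1.53 and -1.49 at 4 h of LDE225, where they were chosen. It was -1.34, -1.65 and -1.63 at 16 h and -2.20 and -2.03 at 48 h. Single vehicle tumours lay within -0.17 to 0.09 of their own group's mean at these times. Of the 27, 26 lay below both vehicle tumours in each LDE225 tumour of 48 h, and 26, 27 and 26 lay below all 3 vehicle tumours in LDE225 tumours 1, 2 and 3 of 16 h. The same count was not made over all probe sets, so these numbers only describe the 27.

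**Figure D5:**
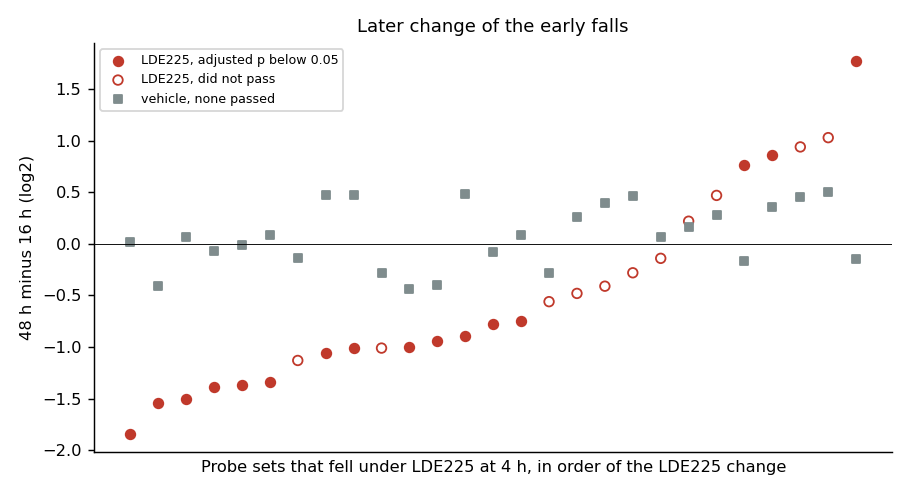
Log2 change at 48 h minus 16 h for the 27 probe sets that were lower under LDE225 at 4 h, in order of their change in LDE225 tumours, with circles for LDE225 (filled where adjusted p was below 0.05) and grey squares for vehicle tumours. In LDE225 tumours 20 of 27 lie below 0 and the range is -1.84 to 1.77, while vehicle tumours lie between -0.44 and 0.50.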

How the data were processed

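The authors deposited linear probe-set intensities from MAS5, per the submitters' processing notes. Its version and its scaling target are not given in the sources used here. Before log2, 4 was added, close to the 20th percentile of signal (3.8), which understates changes of dim probe sets, and 20.5% of signals lay below this offset. One model over 8 groups and 21 arrays (13 residual degrees of freedom) was fitted in R 4.3.3 by limma 3.58.1, using a mean-variance trend, two-sided tests and Benjamini-Hochberg adjustment over 45037 of 45101 probe sets, the 64 control probe sets being left out. The p-values measure the spread between tumours of separate mice. No 2 arrays held identical values. No pairing by mouse number was clear: 3 of 12 same-numbered pairs had deviations correlated over 0.1, in a range of -0.13 to 0.32. In groups of 2 tumours the deviations mirror each other, so this check cannot exclude pairing. The numbers were not used as a block.

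The groups compared and the lists were chosen with earlier results of these data known. The design called for 1 gene symbol per probe set, a fixed set of genes, 22 gene lists with cell type markers, and promoter motifs. No table used here pairs probe sets with genes, so these were not run, tissue markers were not checked, no promoter or other sequence is shown, and only the 2 largest rising and 2 largest falling probe sets are named. The model was tested on simulated data, with 200 changed probe sets in each run. Of log2 changes of 1 it recovered 27.5% in the LDE225 comparison, 17.5% in vehicle and 5% in the difference. Of log2 changes of 2 it recovered 66.5%, 63.5% and 44%. False calls made up at most 8.33% of calls. In these runs many true changes went uncalled, above all in the difference from vehicle. The data called 6479 probe sets in LDE225 and 1346 in the difference, more than the 200 planted. The adjusted threshold depends on how many probe sets change, so these shares may be too low for the data. True changes can still go uncalled. The DNA arrays were not used here. Alternatives covered the offset, scaling, filter, trend, array weights, arrays fitted, mouse numbers and single tumours.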

Additional observations from a re-analysis of the deposited data

Results flagged for a closer look

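The change from 16 h to 48 h differed between LDE225 and vehicle tumours, by a direct test in limma, for 1346 probe sets. For the named probe sets this difference on the log2 scale was 4.85 for 1417416_at (SE 0.70, limma, adjusted p = 0.0011), 5.12 for 1419411_at (0.79, limma, adjusted p = 0.0018), -4.31 for 1460627_at (0.44, limma, adjusted p = 5.8e-05) and -3.69 for 1435941_at (0.45, limma, adjusted p = 0.00029). They were chosen partly by this test. It was 1.67 for the B1 repeat probe set. Of the 27 probe sets lower at 4 h, 7 had a lower and 1 a higher change under LDE225 than under vehicle, against 1.77% and 1.21% of all probe sets. Groups of 2 and 3 tumours are too small to call a single tumour outlying. Leaving out single tumours did change the count of 1346, as given above.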

How the results depend on the processing

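Over 20 alternatives, the 4 named probe sets passed in LDE225 and in the difference from vehicle every time, and in vehicle never. These probe sets were picked as the largest changes among those that already passed in LDE225 and in the difference. Passing again in refits of the same arrays was favoured by that choice and is no separate test of them. Their log2 change in LDE225 spanned 3.90 to 5.10 for 1417416_at, 2.88 to 5.51 for 1419411_at, -4.28 to -2.76 for 1460627_at and -3.89 to -2.61 for 1435941_at. The LDE225 count of 6479 ranged over 5429 to 9306 with all tumours, and over 2412 to 6742 with single tumours left out, where the lone tumour of a group is assumed to vary like the others. The vehicle count of 308 was 77 with median centring, 62 without the trend, 674 with array weights, 1049 without resistant arrays and 10 to 266 with single tumours left out. The count of differences from vehicle, 1346, was 2249 with an offset of 32, 680 without the trend, 2522 with array weights, 2610 without resistant arrays and 229 to 1562 with single tumours left out. The 13 early falls that fell further became 12 to 17 under the other alternatives and 7 to 14 with single tumours left out. With the mouse number as a replicate block, whose pairing the arrays did not bear out (4 of 10 arrays correlated best with their own number), the counts were 5941 in LDE225, 117 in vehicle and 930 for the difference. Causes of these shifts were not tested. The B1 repeat passed in LDE225 under all 20 alternatives, and its difference from vehicle under 18. Gene lists, the choice of probe set for a gene and promoter motifs were not run. Signals near the offset limit what dim probe sets can show.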
